A study of Rattus norvegicus with 30 samples.

Results

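The samples described here are the 3 cultures of rat bone marrow mesenchymal stem cells kept for 72 h in adipogenic medium (AD_3d) and the 3 of undifferentiated cells (CON). They were chosen by their titles, AD_3d_1 to AD_3d_3 and CON_1 to CON_3, and make up 6 of the 30 samples of the series. The others cover adipogenic medium at 3 and 12 h and osteogenic and chondrogenic medium at 3, 12 and 72 h, with 3 samples in each group. All cells came from the femurs and tibiae of 3 female Sprague Dawley rats 3 weeks old and were induced at passage 2 with commercial media whose composition the study does not state. Each sample pooled 3 individual cultures, so the replicates are pools of cultures. How the pools relate to the 3 rats is not stated, so they cannot be counted as single animals. The controls are cells taken at 0 h, before induction. No uninduced cells kept for 72 h were sampled, so the effect of the medium cannot be told apart from the effect of 72 h in culture. The same 3 CON samples serve every comparison with undifferentiated cells.

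Adipogenesis turns a spindle-shaped stromal cell into a rounded cell that stores triglyceride in lipid droplets. A hormone cocktail, usually with a glucocorticoid, insulin and an agent that raises cyclic AMP, is commonly used to start the programme, which early factors of the C/EBP family and then PPARG and C/EBP-alpha carry forward. Cells leave the division cycle, lose actin stress fibres, remodel their matrix and switch on enzymes and droplet proteins for fat storage.

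Expression was measured by RNA sequencing and is given as CPM, the read count of a gene scaled to the total of its sample, for 9999 gene names. The total reads recovered from the steps between values were 6981467, 7179051 and 6594559 for CON_1 to CON_3 and 5616285, 5638906 and 6313113 for AD_3d_1 to AD_3d_3. The listed genes held 54.1, 53.7 and 54.2% of these totals in CON and 47.9, 49 and 38.9% in AD_3d, lowest in AD_3d_3. A count of 3 reads, taken as the floor, corresponded to 0.43, 0.418 and 0.455 CPM in CON and 0.534, 0.532 and 0.475 CPM in AD_3d, for counting error alone. Some genes that are abundant in cultured stromal cells had low values in all 6 samples. Actb, cytoplasmic beta-actin, had 3.01, 0.557 and 2.43 CPM in the CON samples and 1.6, 1.06 and 1.11 CPM in the AD_3d samples. Vim, the intermediate filament protein of mesenchymal cells, had 0.286, 0.139 and 0.303 CPM in the CON samples and 0, 0 and 0 CPM in the AD_3d samples. Why they were near 0 was not tested. CPM is not scaled to gene length, and levels are compared between samples, not between genes.

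AD_3d_3 lay apart from AD_3d_1 and AD_3d_2, so the counts are given with and without it. Its log2(CPM + 1) value was more than 1 below the mean of the other 2 replicates for 325 of the 4363 tested genes and more than 1 above it for 100. The same measure gave 61 and 119 genes for AD_3d_1, 45 and 174 for AD_3d_2, and at most 32 and 22 for a CON sample. On genes with at least 100 reads in a pair, the mean chi-square of AD_3d_1 against AD_3d_2 was 10.3, where counting error alone gives 1, against 164 and 181 for the pairs with AD_3d_3 and 4.52, 7.43 and 9.31 for the CON pairs. AD_3d_3 was nevertheless nearest to its own group: its distance over the tested genes, on log2(CPM + 1), was 45.1 to the mean of the other AD_3d samples, 64 to osteogenic medium at 72 h and 69.9 to CON.

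After 72 h in adipogenic medium, 666 of 4363 tested genes (15.3%) differed from undifferentiated cells by 1 or more in either direction on the log2 scale with a limma adjusted p under 0.05. Of these, 270 (6.19%) were higher and 396 (9.08%) lower in AD_3d, and in 245 and 393 of them the 3 samples of a group all lay on 1 side of the other 3. These shares are the background for the counts of the gene lists. Without AD_3d_3 the counts were 306 higher (7.01%) and 355 lower (8.14%). The runs with and without it shared 574 genes, 86.2% of the calls with it and 86.8% of those without, all in the same direction. Scaling moved the split between directions: the median log2 fold change over all tested genes was -0.05 on the deposited CPM, 0.07 after median-ratio scaling and 0.11 after rescaling to the sum of the listed genes. Median-ratio scaling gave 381 higher and 351 lower genes, so which direction held more genes depends on the scaling. The calls count genes per bulk culture, in which fewer cells of a kind and less RNA per cell cannot be told apart.

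The largest rise was that of Igfbp5, which encodes a secreted protein that binds insulin-like growth factors. Its level was 3.87, 5.99 and 6.67 CPM in the CON samples and 14952, 14956 and 380.5 CPM in the AD_3d samples. AD_3d_1 and AD_3d_2 were alike and AD_3d_3 was far lower, yet all AD_3d samples exceeded every CON sample. The log2 fold change was 9.43 (standard error 0.74, adjusted p = 9.2e-12) and 11.19 without AD_3d_3. The rise was not particular to adipogenic medium: mean Igfbp5 was 32633 CPM in chondrogenic medium at 72 h, against 10096 CPM in AD_3d. Spon1, an extracellular matrix glycoprotein, had 40.4, 40.8 and 36.7 CPM in the CON samples and 2578, 2679.8 and 1912 CPM in the AD_3d samples. Every AD_3d sample was high and the rise was 5.88 on the log2 scale (standard error 0.13, adjusted p = 4.6e-25). The oxidase gene Aox1 had 100.4, 98.9 and 94.6 CPM in the CON samples and 4010.5, 4085 and 6352 CPM in the AD_3d samples. AD_3d_3 was the highest sample for it and the groups did not overlap (log2 fold change 5.57, standard error 0.20, adjusted p = 9.0e-20). Snai2, a zinc finger repressor known from epithelial-mesenchymal transition, had 7.59, 5.85 and 7.89 CPM in the CON samples and 257, 257 and 298 CPM in the AD_3d samples. The AD_3d values were close together and far above CON (log2 fold change 5.07, standard error 0.28, adjusted p = 3.8e-15). Ptn, the heparin-binding growth factor pleiotrophin, rose by 4.93 on the log2 scale (adjusted p = 7.0e-18), from 72.5 to 84.3 CPM in CON to 1559 to 3041 CPM in AD_3d.

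The other largest rises under the naming rule were, with their log2 fold changes, Crispld2 (6.04), C4b (5.46), Akr1cl (5.39), Vat1l (4.80), Ace (4.75), Frzb (4.66), Gem (4.65), Cxcl14 (4.38), Cfd (4.20) and Hpgd (4.09). Cxcl14, a chemokine gene, had no reads in any CON sample and 75.9, 78 and 0.475 CPM in the AD_3d samples. Its mean over the AD_3d group was at least 119-fold above the mean floor of CON, but AD_3d_3 itself was at its own floor, so the size of this rise rests on AD_3d_1 and AD_3d_2. Hpgd, the dehydrogenase that inactivates prostaglandins, had 0, 0.975 and 0.152 CPM in the CON samples and 63.6, 65.8 and 1.58 CPM in the AD_3d samples. Here too AD_3d_3 lay close to CON, although above it. Gem, a small GTP-binding protein, went the other way within the group, with 0.573, 1.11 and 0.455 CPM in the CON samples and 28.8, 26.4 and 93 CPM in the AD_3d samples. Ace, the angiotensin-converting enzyme, had 0.286, 0.836 and 0.607 CPM in the CON samples and 52, 70.6 and 18.5 CPM in the AD_3d samples. All AD_3d samples lay well above CON for both Gem and Ace. Without AD_3d_3 the rise was 6.28 for Cxcl14, 5.64 for Hpgd, 6.10 for C4b, 5.60 for Vat1l, 5.48 for Frzb and 4.86 for Cfd. The 15 genes kept their call without it, with log2 fold changes from 4.08 to 11.19.

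The largest fall was that of Kprp, a keratinocyte proline-rich protein gene, with 772, 767 and 811 CPM in the CON samples and 4.63, 3.9 and 0 CPM in the AD_3d samples. Its values in AD_3d were all far below those in CON (log2 fold change -8.02, standard error 0.65, adjusted p = 2.4e-11). Il1rl1, the receptor for interleukin-33, had 835, 859 and 1099.5 CPM in the CON samples and 13.5, 21.1 and 2.22 CPM in the AD_3d samples. AD_3d_3 was the lowest sample (log2 fold change -6.52, standard error 0.36, adjusted p = 3.8e-15). Thy1, the surface glycoprotein CD90 that is used to define mesenchymal stromal cells, had 8139.7, 7736 and 8279.7 CPM in the CON samples and 387, 431 and 462 CPM in the AD_3d samples. The 6 values formed separate tight groups (log2 fold change -4.24, standard error 0.11, adjusted p = 1.0e-22). Lama5, the laminin alpha-5 chain of basement membranes, had 868, 878 and 862 CPM in the CON samples and 31.5, 28 and 30.3 CPM in the AD_3d samples. Replicates of both groups were nearly equal (log2 fold change -4.82, standard error 0.18, adjusted p = 3.4e-19). Egln3, an oxygen-dependent prolyl hydroxylase that acts on HIF proteins, had 157, 150.3 and 168 CPM in the CON samples and 2.67, 6.74 and 4.75 CPM in the AD_3d samples (log2 fold change -4.86, standard error 0.23, adjusted p = 6.5e-17). The other members of the 15 largest falls, with log2 fold changes, were Ccr1 (-5.25), Cryab (-4.97), Cnn1 (-4.85), Kif20a (-4.66), Sv2c (-4.49), Aoc1 (-4.02), Ramp3 (-3.98), Galnt18 (-3.84), Nuf2 (-3.83) and Pla2g7 (-3.78). They include Ccr1, a chemokine receptor, Cryab, a small heat shock protein, Cnn1, the smooth muscle calponin, and the mitotic genes Kif20a and Nuf2. Without AD_3d_3 the values were -7.22 for Kprp, -5.69 for Il1rl1, -3.98 for Cryab and -3.28 for Ramp3, and all 15 kept their call, at -7.22 to -3.28.

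**Figure D1:**
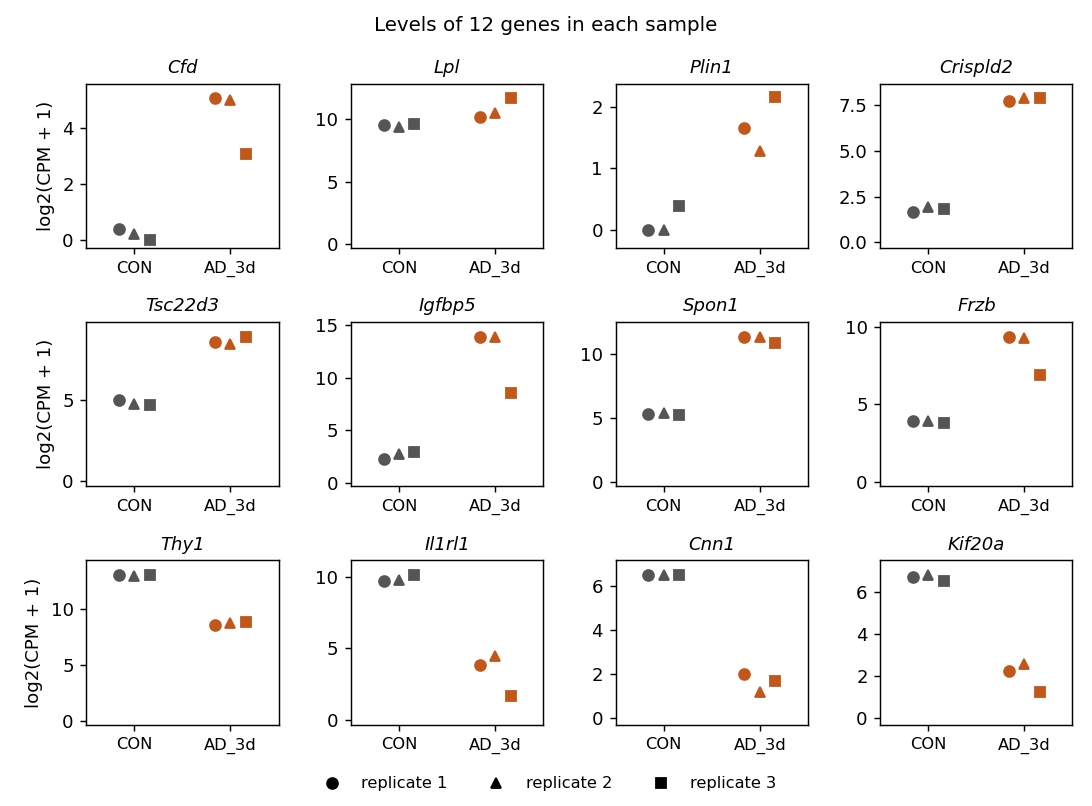
Levels of 12 genes named in the text, as log2(CPM + 1), in each of the 3 CON and 3 AD_3d samples; marker shape gives the replicate number and vertical scales differ between panels. AD_3d_3 (square) lies below the other AD_3d samples for Cfd, Igfbp5 and Frzb and above them for Lpl and Plin1.

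Genes of fat storage and its regulators leaned upward. Of 25 tested members, 9 rose and 1 fell, beside 6.19% and 9.08% of all tested genes, and their median log2 fold change was 0.54 (0.78 without AD_3d_3) against -0.05 over all genes. Without AD_3d_3, 10 rose and 1 fell. Cfd, the adipocyte protease adipsin, had 0.286, 0.139 and 0 CPM in the CON samples and 32.9, 31 and 7.29 CPM in the AD_3d samples. It was near 0 in all CON samples and clearly present in every AD_3d sample, least in AD_3d_3 (log2 fold change 4.20, standard error 0.32, adjusted p = 4.4e-12). Gpd1, which makes the glycerol phosphate backbone of triglyceride, had 1.15, 0.975 and 0.152 CPM in the CON samples and 6.94, 7.27 and 6.18 CPM in the AD_3d samples. The AD_3d samples were close together and above CON (log2 fold change 2.20, standard error 0.27, adjusted p = 9.8e-08). Plin1, the perilipin that coats lipid droplets, had 0, 0 and 0.303 CPM in the CON samples and 2.14, 1.42 and 3.48 CPM in the AD_3d samples. These are low values, but no AD_3d sample overlapped CON (log2 fold change 1.57, standard error 0.21, adjusted p = 3.4e-07).

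Dgat2, which catalyses the last step of triglyceride synthesis, had 32.7, 24.9 and 34 CPM in the CON samples and 75, 94.9 and 78.6 CPM in the AD_3d samples, a log2 fold change of 1.42 (adjusted p = 3.9e-07). Acaca, the enzyme that makes malonyl-CoA for fatty acid synthesis, had 2.15, 2.23 and 2.43 CPM in the CON samples and 6.05, 6.92 and 9.66 CPM in the AD_3d samples, a change of 1.37 (adjusted p = 0.0017). All AD_3d samples were above all CON samples for both enzymes. Lpl, the lipase that frees fatty acids from lipoproteins, had 721, 663 and 777 CPM in the CON samples and 1160.4, 1387 and 3216 CPM in the AD_3d samples. AD_3d_3 was well above the other AD_3d samples, and the call rested on it: the log2 fold change was 1.27 (adjusted p = 0.0022) with it and 0.82 without it, which is under the threshold. G0s2, an inhibitor of the triglyceride lipase Pnpla2, and Apoe and Wisp2, a lipid carrier and a secreted Wnt target, also rose, by 1.26, 1.15 and 1.10 on the log2 scale. The member that fell was Fabp5, a fatty acid binding protein, with 36.2, 34.5 and 35.9 CPM in the CON samples and 11.8, 13.5 and 12.7 CPM in the AD_3d samples. Its AD_3d values were all lower (log2 fold change -1.43, standard error 0.16, adjusted p = 2.8e-08).

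The central transcription factors of adipogenesis were barely measured. Pparg had 0, 0.139 and 0 CPM in the CON samples and 0, 0.177 and 0.95 CPM in the AD_3d samples. Only AD_3d_3 was above its floor, and the gene was not called. Cebpa, with 0.859, 0.418 and 1.06 CPM in the CON samples and 0.356, 0.355 and 0.475 CPM in the AD_3d samples, was near the floor in both groups. Fasn and Scd2, for fatty acid synthesis and desaturation, were abundant in both states. Fasn had 694, 697 and 733 CPM in the CON samples and 769, 841 and 785 CPM in the AD_3d samples. Scd2 had 2965, 2910.3 and 3152 CPM in the CON samples and 4172, 4652 and 4268 CPM in the AD_3d samples. The log2 fold changes of 0.17 and 0.54 did not reach the threshold, although all AD_3d samples were above all CON samples. Klf4, an early regulator of the programme, had 217, 232 and 241 CPM in the CON samples and 557, 598 and 242 CPM in the AD_3d samples. AD_3d_3 lay at the CON level, and the log2 fold change was 0.91 with it, not called, and 1.32 without it, called. Fabp4 and Adipoq, which mark mature fat cells, were not analysed here, nor were Cebpb, Cebpd, Plin2 and Angptl4.

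As a check of the label, 4 of 7 tested adipocyte markers rose and 0 fell, namely Cfd, Gpd1, Plin1 and Lpl, and 3 rose without AD_3d_3. The summed level of the 10 markers in the table was 724, 665 and 779 CPM in CON and 1205, 1427 and 3234 CPM in AD_3d, most of it Lpl. Lep and Cd36 were at 0 in all 6 samples, and Cidec and Retn were under the filter on low values. The cells at 72 h held several adipocyte transcripts. Not all were particular to adipogenic medium. In osteogenic medium at 72 h, Lpl and Cfd had means of 1107 and 4.61 CPM, against 1921 and 23.8 CPM in AD_3d. Plin1, Gpd1, Acaca and Apoe were also lower there than in AD_3d. The other risen fat storage genes, Dgat2, G0s2 and Wisp2, were higher there, at 111, 4.19 and 5.34 CPM against 82.8, 1.75 and 2.9 CPM. Why Lep and Cd36 were at 0 was not tested.

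Genes known to respond to glucocorticoids included some of the largest changes. Of 14 tested members 4 rose and 2 fell, with a median log2 fold change of 0.54 (0.41 without AD_3d_3), and the counts were the same without AD_3d_3. Crispld2, a secreted protein gene, had 2.15, 2.79 and 2.58 CPM in the CON samples and 211, 238 and 237 CPM in the AD_3d samples. The groups lay far apart with little spread (log2 fold change 6.04, standard error 0.23, adjusted p = 3.4e-19). Tsc22d3, which encodes the glucocorticoid-induced leucine zipper, had 31.1, 26.9 and 25.3 CPM in the CON samples and 379, 350.2 and 488 CPM in the AD_3d samples. All AD_3d samples were high (log2 fold change 3.81, standard error 0.15, adjusted p = 2.0e-18). Mt2A, a metallothionein that binds zinc and copper, had 342, 316 and 410.0 CPM in the CON samples and 5138, 5737 and 3928 CPM in the AD_3d samples. Mertk, a receptor for apoptotic cells, rose by 3.23 on the log2 scale (adjusted p = 2.4e-11). The members that fell were Hsd11b1, which regenerates active glucocorticoid, with 1246, 1208 and 1056 CPM in the CON samples and 202, 199.9 and 181 CPM in the AD_3d samples, and Gadd45b, a stress protein gene, at -1.19 (adjusted p = 4.1e-09). Maob, a monoamine oxidase, was high in AD_3d_3 alone, at 171 CPM against 30.5 to 40.3 CPM in the other samples, and was not called. Fkbp5, Per1, Zbtb16 and Klf9 were not analysed here.

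Genes that respond to cyclic AMP moved little as a list: 1 of 8 tested members rose and 1 fell. Pde3b, the phosphodiesterase through which insulin lowers cyclic AMP in fat cells, had 0.43, 1.39 and 1.67 CPM in the CON samples and 3.74, 3.01 and 3.01 CPM in the AD_3d samples, a log2 fold change of 1.02 (adjusted p = 0.0088). Stc1, a secreted glycoprotein, had 68.9, 67.6 and 71.4 CPM in the CON samples and 22.1, 26.2 and 59.1 CPM in the AD_3d samples, a change of -1.07 (adjusted p = 0.0012). For Stc1, AD_3d_3 lay just under the CON samples. Without AD_3d_3, 2 members rose and 1 fell. Creb3l1, a membrane-bound transcription factor of the secretory pathway, was at 0.99, just under the threshold, and at 1.29 without AD_3d_3, where it was called.

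In the insulin and growth factor system, 3 of 9 tested members rose and 2 fell, also without AD_3d_3, where the call of Grb14 was lost after median-ratio scaling and with edgeR. Besides Igfbp5, Pik3r1, the regulatory subunit of phosphoinositide 3-kinase, had 129.6, 126 and 121 CPM in the CON samples and 400.1, 375 and 393 CPM in the AD_3d samples. The AD_3d samples were alike and above CON (log2 fold change 1.62, standard error 0.13, adjusted p = 1.3e-11). Grb10, an adaptor that restrains insulin receptor signalling, had 6.02, 5.99 and 4.55 CPM in the CON samples and 18.9, 18.4 and 19.8 CPM in the AD_3d samples, a log2 fold change of 1.63 (adjusted p = 4.1e-06). Its relative Grb14 had 334, 342 and 329 CPM in the CON samples and 153, 164 and 15.8 CPM in the AD_3d samples. Grb14 fell in all AD_3d samples, most in AD_3d_3, with a log2 fold change of -2.16 (adjusted p = 2.4e-04) and -1.08 without that sample. Igfbp3 was at 0 in all AD_3d samples and at 2.86, 1.81 and 4.55 CPM in CON, a mean at least 5.98-fold above the mean floor of AD_3d. The summed level of the list was 1164, 1156 and 1151 CPM in CON and 16149, 16197 and 1300.3 CPM in AD_3d, most of it Igfbp5 in AD_3d_1 and AD_3d_2. Insr, Irs1 and Foxo1 were not analysed here.

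Genes of cholesterol synthesis leaned downward. Of 13 tested members 0 rose and 5 fell, with a median of -0.90 against -0.05 over all genes. Without AD_3d_3, 7 fell. After median-ratio scaling 3 fell, without Sqle and Insig1, and 1 rose, the cholesterol exporter Abca1, with a list median of -0.73. Cyp51, which removes a methyl group from lanosterol, had 1056, 1148 and 1112 CPM in the CON samples and 334, 315 and 456 CPM in the AD_3d samples. The AD_3d samples were below all CON samples, AD_3d_3 the least so (log2 fold change -1.60, standard error 0.14, adjusted p = 1.2e-10). Msmo1, which acts on the next sterols of the pathway, had 676, 687 and 726 CPM in the CON samples and 182, 200.4 and 316 CPM in the AD_3d samples. As for Cyp51, all AD_3d samples were below CON and AD_3d_3 was the highest of them (log2 fold change -1.62, standard error 0.15, adjusted p = 4.3e-10). Sqle, the squalene oxidase, and Insig1, the sterol-regulated anchor of SREBP processing, changed by -1.07 and -1.14 on the log2 scale. The genes that fell kept their call without AD_3d_3. Hmgcs1 was not analysed here.

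Fatty acid oxidation showed no common direction: 2 of 19 tested members rose and 1 fell, the same as without AD_3d_3, and the sign of the median depended on the scaling (-0.01 on the deposited CPM, 0.16 after median-ratio scaling). Hadhb, a subunit of the mitochondrial trifunctional protein, rose by 1.31 on the log2 scale at levels of 2.53 to 4.1 CPM in AD_3d. Bdh1, which interconverts the ketone bodies, had 80.9, 68 and 88.7 CPM in the CON samples and 23.9, 34.8 and 32.8 CPM in the AD_3d samples, a change of -1.36 (adjusted p = 2.0e-07).

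Glycolysis and the tricarboxylic acid cycle had 4 rises and 6 falls among 22 tested members, with a median of -0.28 (-0.20 without AD_3d_3), and as many of each without AD_3d_3, where 9 of the 10 genes were kept. Pgk1, which makes the first ATP of glycolysis, had 2202, 2068 and 2152 CPM in the CON samples and 371, 359 and 198 CPM in the AD_3d samples. Every AD_3d sample was several-fold lower (log2 fold change -2.84, standard error 0.16, adjusted p = 3.2e-15). Gpi, the phosphoglucose isomerase, had 1526, 1508 and 1592 CPM in the CON samples and 528, 578 and 358 CPM in the AD_3d samples (log2 fold change -1.69, standard error 0.13, adjusted p = 1.3e-11). Aldoa, Pkm and the lactate exporter Slc16a3 also fell, with log2 fold changes of -1.52, -1.48 and -1.48. Their levels were low, with means of 15.8, 15.4 and 1.84 CPM in CON and 5.01, 4.88 and 0 CPM in AD_3d. Ldha, lactate dehydrogenase, was at -1.04, and at -0.90 without AD_3d_3, where it was no longer called. The rises were those of Slc16a1, a carrier of lactate, pyruvate and ketone bodies, Pfkfb3, which makes the activator of phosphofructokinase, Idh2, a mitochondrial source of NADPH, and Pc, pyruvate carboxylase. Slc16a1 had 538, 588 and 521 CPM in the CON samples and 2856, 2412 and 3223 CPM in the AD_3d samples (log2 fold change 2.36, standard error 0.10, adjusted p = 8.2e-18). Pfkfb3 had 1.58, 0.557 and 0.303 CPM in the CON samples and 3.03, 4.97 and 16 CPM in the AD_3d samples and was highest in AD_3d_3, and its rise was smaller without that sample. Idh2 had 5.73, 10 and 9.1 CPM in the CON samples and 28, 22.3 and 36.3 CPM in the AD_3d samples. Gapdh was not analysed here.

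Several of the glycolytic genes are also known targets of the hypoxia response. Of 17 tested members of that list 4 rose and 6 fell (5 without AD_3d_3), with a median of -0.23 (-0.39 without AD_3d_3 and -0.12 after median-ratio scaling). The falls were led by Egln3, followed by Pgk1, Bnip3 (-1.85), a mitophagy receptor, and Pdk1 (-1.75), a pyruvate dehydrogenase kinase. Bhlhe40 (-1.72), a repressor that is also part of the clock, came next. Against this direction, Epas1, which encodes HIF-2-alpha, had 366, 383 and 380.3 CPM in the CON samples and 1838, 1755 and 1135 CPM in the AD_3d samples. All AD_3d samples were above CON (log2 fold change 2.03, standard error 0.15, adjusted p = 1.6e-12). Ndrg1, a stress-induced gene, had 64.6, 66.9 and 67.8 CPM in the CON samples and 327, 333 and 76.7 CPM in the AD_3d samples. Here AD_3d_3 lay near the CON level, and the log2 fold change was 1.60 with it and 2.30 without it. Hif1a was at 0.177 to 1.25 CPM and was not called, and Vegfa was not analysed here.

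Subunits of the respiratory chain stayed below the threshold almost throughout. Of 40 tested 0 rose and 2 fell, with and without AD_3d_3, and their median was -0.38 (-0.19 after median-ratio scaling). The falls were those of Ndufa4l2 and Cox6b1, at -1.28 and -1.14. Among 30 mitochondrial ribosomal proteins Mrpl54 fell (log2 fold change -1.14, adjusted p = 5.6e-06), also without AD_3d_3 but not after median-ratio scaling, and the list median of -0.12 (-0.01 without AD_3d_3) became 0.06 with that scaling. Among 32 genes of the cytosolic ribosome and its kinases Rpl17 rose (log2 fold change 1.02, adjusted p = 0.0053), at low levels, with a list median of 0.10 (0.22 without AD_3d_3). The summed level of the cytosolic ribosomal genes was 11444, 11084 and 11402 CPM in CON and 12820.4, 13156 and 10086 CPM in AD_3d.

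Genes of cell division leaned downward. Of 35 tested members of the mitosis and centromere list 0 rose and 15 fell, also without AD_3d_3, after median-ratio scaling 16 fell, and with edgeR 2 rose and 17 fell. Their median was -0.90 (-0.66 without AD_3d_3) against -0.05 over all genes. With edgeR it was much larger in size, at -2.73 against 0.08 over all genes. The summed level of the list was 479, 493 and 444 CPM in CON and 46.5, 51.3 and 38.3 CPM in AD_3d. Kif20a, a kinesin of the cleavage furrow, had 104, 113 and 90.8 CPM in the CON samples and 3.74, 4.97 and 1.43 CPM in the AD_3d samples. Levels in AD_3d were far lower, lowest in AD_3d_3 (log2 fold change -4.66, standard error 0.20, adjusted p = 9.8e-18). Cdc20, the activator of the anaphase-promoting complex, had 38.1, 43.6 and 38.2 CPM in the CON samples and 3.38, 1.6 and 3.01 CPM in the AD_3d samples. The groups were far apart (log2 fold change -3.52, standard error 0.26, adjusted p = 2.7e-12). Kif11, the kinesin that separates spindle poles, had 84.7, 81.8 and 80.5 CPM in the CON samples and 6.94, 6.21 and 5.86 CPM in the AD_3d samples (log2 fold change -3.51, standard error 0.17, adjusted p = 1.2e-16). Birc5, the survivin of the chromosomal passenger complex, had 14.3, 21.9 and 12.7 CPM in the CON samples and 0.712, 0.709 and 0.317 CPM in the AD_3d samples. It was near or under the floor in AD_3d_3 and low in the others (log2 fold change -3.43, standard error 0.19, adjusted p = 3.5e-15). The rest of the falls were those of Nuf2 (-3.83), Kifc1 (-3.37), Hmmr (-3.18), Kif22 (-3.17), Ccnf (-2.97), Cenpa (-2.79), Cdca7 (-1.86), Top2a (-1.64), Ncaph (-1.28), Ckap2 (-1.22) and Cdca3 (-1.19). Foxm1 was at or near 0 in all samples, and Mki67, Ccnb1 and Cdk1 were not analysed here.

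Of 20 tested members of the DNA replication list 0 rose and 5 fell, with and without AD_3d_3, and the median was -0.56 (-0.41 without AD_3d_3). Mcm3, a subunit of the replicative helicase, had 63.5, 73.1 and 66.4 CPM in the CON samples and 17.6, 13.7 and 8.4 CPM in the AD_3d samples (log2 fold change -2.32, standard error 0.16, adjusted p = 6.1e-13). Rrm1, the large subunit of ribonucleotide reductase, had 164, 174 and 152 CPM in the CON samples and 75.3, 72.2 and 43.2 CPM in the AD_3d samples (log2 fold change -1.39, standard error 0.14, adjusted p = 1.1e-09). The AD_3d samples lay below CON for both, AD_3d_3 the lowest. Mcm6, Cdt1 and Gins1, which load or form the helicase, changed by -1.46, -1.46 and -2.16. Tyms, the thymidylate synthase, did not follow, with 29.8, 28.4 and 27.8 CPM in the CON samples and 42.6, 44 and 33.9 CPM in the AD_3d samples and no call. Among 23 histone genes 0 rose and 5 fell, 7 without AD_3d_3. Those that fell were Hist1h1a (-2.27), Hist1h2bo (-1.99), Hist1h2ak (-1.92), Hist1h2bk (-1.45) and Hist1h1e (-1.25). The other 18 were not called, H3f3b among them, with 1632, 1674 and 1741 CPM in the CON samples and 1942, 2049.7 and 2162 CPM in the AD_3d samples. Of 7 tested inhibitors and D cyclins Ccnd2 rose (log2 fold change 1.45, adjusted p = 0.0053) and 0 fell, with and without AD_3d_3. Cdkn1a and Cdkn1b were not analysed here.

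The promoters of genes that fell were read from RefSeq on the GRCr8 assembly, 250 bases before to 50 after each gene start, and searched on both strands for letters known from cell cycle promoters. The letters TTTGAA, the core of the cell cycle homology element, occurred in 11 of the 15 mitosis genes that fell, in 8 of the 13 other tested members of the list with a promoter and in 18.3% of all 33469 promoters. CCAAT occurred in 12 of the 15 that fell, in 7 of the 13 others and in 37.5% of all. Of the 5 replication genes that fell, 0 held TTTGAA and 4 held CCAAT. The E2F-type letters TTTGGCGC were in 3 of them, Mcm6, Gins1 and Cdt1, and TTTCGCGC in 3, Mcm3, Mcm6 and Cdt1, against 0.493% and 0.326% of all promoters. Among the 10 other tested replication genes with a promoter, 1 held TTTGGCGC, 2 held TTTCGCGC, 1 held TTTGAA and 6 held CCAAT. Neither E2F-type form was in a promoter of a tested mitosis gene. Mitosis genes that were not called held TTTGAA nearly as often as those that fell. The cholesterol genes that fell held no TCACNCCAC, a sterol response type, in 3 promoters found (1.12% of all held it). Of the risen genes of the NRF2 and metal list, 2 of 3 held TGACNNNGC, as did 3 of 10 other members and 14.4% of the 3058 tested promoters, and 1 held TGCGCNC, as did 2 of the others and 27.9% of those tested. Among tested promoters the shares were 11.7% for TTTGAA, 36.9% for CCAAT, 0.785% for TTTGGCGC and 0.752% for TTTCGCGC. A match describes the letters in the window and is neither a binding site nor a cause.

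The promoters of Cdc20 (chr5:137255750-137256049, minus strand), Birc5 (chr10:103571896-103572195, plus strand) and Mcm6 (chr13:42404303-42404602, minus strand) are printed because they show the letters in genes of both lists that fell. They run 5′ to 3′ on the strand of the gene. Capitals mark TTTGAA and CCAAT on either strand in Cdc20 and Birc5, and TTTGGCGC and TTTCGCGC in Mcm6.
Cdc20: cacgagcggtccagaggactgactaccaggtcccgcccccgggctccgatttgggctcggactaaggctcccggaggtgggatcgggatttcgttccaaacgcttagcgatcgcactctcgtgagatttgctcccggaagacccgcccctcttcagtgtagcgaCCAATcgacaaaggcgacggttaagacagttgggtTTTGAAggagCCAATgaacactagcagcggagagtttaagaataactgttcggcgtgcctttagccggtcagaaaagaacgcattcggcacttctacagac
Birc5: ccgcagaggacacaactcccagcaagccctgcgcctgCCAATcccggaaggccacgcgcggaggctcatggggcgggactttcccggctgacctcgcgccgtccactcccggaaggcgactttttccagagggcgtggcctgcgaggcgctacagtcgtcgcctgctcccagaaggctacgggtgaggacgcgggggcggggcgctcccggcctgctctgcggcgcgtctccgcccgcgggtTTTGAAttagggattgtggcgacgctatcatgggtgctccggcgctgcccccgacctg
Mcm6: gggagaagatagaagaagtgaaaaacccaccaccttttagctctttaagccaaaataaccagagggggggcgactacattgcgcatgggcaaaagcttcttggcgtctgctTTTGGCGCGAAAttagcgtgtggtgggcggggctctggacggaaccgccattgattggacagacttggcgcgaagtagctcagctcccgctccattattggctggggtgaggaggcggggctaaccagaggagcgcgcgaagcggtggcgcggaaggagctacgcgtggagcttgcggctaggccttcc

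Actin and contractile genes leaned downward: 0 of 27 tested members rose and 10 fell, beside 6.19% and 9.08% of all tested genes. Without AD_3d_3, 9 fell. The list median was -0.55 against -0.05 over all genes. Myh10, the heavy chain of non-muscle myosin IIB, had 7812, 7945 and 7498 CPM in the CON samples and 914, 801 and 848 CPM in the AD_3d samples. The AD_3d samples were close together and far below CON (log2 fold change -3.18, standard error 0.11, adjusted p = 6.1e-20). Cnn1 had 87.1, 88.7 and 88 CPM in the CON samples and 3.03, 1.24 and 2.22 CPM in the AD_3d samples (log2 fold change -4.85, standard error 0.17, adjusted p = 6.1e-20). Tpm4 and Tpm2, tropomyosins of stress fibres, changed by -2.19 and -2.33, and Actn4, an actin cross-linker, by -2.22. Cnn2 and Tagln, further actin-binding proteins, changed by -1.53 and -1.11. Myocd and Ankrd1 fell from 1.72 to 3.01 CPM in CON to at most 0.177 CPM in AD_3d. After median-ratio scaling Tagln was not called and the actin-binding Tns1 was called higher. Vcl, the focal adhesion protein vinculin, was at -1.14 and was not called without AD_3d_3 (-0.87). The summed level of the list was 10877, 11046 and 10734 CPM in CON and 2029.6, 1990.1 and 1739 CPM in AD_3d. Most of the CON sum was Myh10, so the fall of the sum is largely that of this gene. Acta2 was at 0 in all 6 samples, and Actg1, Myl9 and Flna were not analysed here.

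The matrix list held falls and rises. Of 34 tested collagens and matrix proteins 4 rose and 12 fell, 6 and 10 without AD_3d_3, with a median of -0.40 (-0.32 without AD_3d_3). Col8a2, a short-chain collagen, had 861, 873 and 851 CPM in the CON samples and 212, 209.8 and 109 CPM in the AD_3d samples. The AD_3d samples were all lower, AD_3d_3 most (log2 fold change -2.34, standard error 0.29, adjusted p = 8.1e-08). Plod1, a lysyl hydroxylase that modifies collagen, had 1385, 1344 and 1490.0 CPM in the CON samples and 585, 668 and 345 CPM in the AD_3d samples (log2 fold change -1.45, standard error 0.16, adjusted p = 1.7e-08). Cyr61, a matricellular protein and target of YAP and SRF, changed by -2.04, Spon2 by -3.42 (-2.52 without AD_3d_3), Tgfbi by -2.16, Fbn2 by -1.86, Emilin1 by -1.32 and Loxl3 by -1.22. Itgbl1, Nid1 and Ctgf were called only with AD_3d_3, and their log2 fold changes without it were -0.04, -0.80 and -0.56. For Itgbl1 the values were 160.3, 170.4 and 167 CPM in CON and 163, 160.0 and 7.92 CPM in AD_3d, so the call came from AD_3d_3 alone. Besides Spon1, Lum, the collagen-binding proteoglycan lumican, had 55.7, 47.9 and 47.3 CPM in the CON samples and 1355, 1513 and 27.1 CPM in the AD_3d samples. AD_3d_1 and AD_3d_2 were far above CON and AD_3d_3 below it, so the groups overlap, and the log2 fold change was 2.92 (adjusted p = 0.0027) with AD_3d_3 and 4.81 without it. Col1a1, Col1a2, Col3a1 and Fn1 were not analysed here.

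Among matrix proteases and their inhibitors 5 of 15 tested members rose and 4 fell, 5 and 3 without AD_3d_3. Cemip, a hyaluronan-degrading protein, had the highest CPM of the CON samples, with 20866, 20136 and 20114 CPM in the CON samples and 1586, 1542 and 2353 CPM in the AD_3d samples. It fell in all AD_3d samples (log2 fold change -3.51, standard error 0.13, adjusted p = 3.2e-19). Adamts1, a protease of proteoglycans, had 8703, 8679 and 8337 CPM in the CON samples and 905, 868 and 492 CPM in the AD_3d samples (log2 fold change -3.56, standard error 0.14, adjusted p = 8.9e-19). Its relative Adamts4 rose (log2 fold change 1.33, adjusted p = 2.5e-08). Mmp13, a collagenase, had 0.859, 1.11 and 1.82 CPM in the CON samples and 53.6, 64.4 and 3.96 CPM in the AD_3d samples. Mmp10, a stromelysin, had 0.43, 0 and 0 CPM in the CON samples and 9.79, 11 and 2.53 CPM in the AD_3d samples. Plau, the urokinase activator of plasminogen, had 1.72, 1.53 and 3.49 CPM in the CON samples and 16.2, 22.2 and 3.48 CPM in the AD_3d samples. Mmp13, Mmp10 and Plau rose by 3.55, 2.77 and 1.95 on the log2 scale. Without AD_3d_3 the rises of Mmp13 and Plau were 4.74 and 2.67. In all of them AD_3d_3 was the lowest AD_3d sample, and for Plau it lay at the level of the highest CON sample. Mmp2, gelatinase A, had 15811, 15663 and 16224 CPM in the CON samples and 20423, 21318 and 11384 CPM in the AD_3d samples and was not called. Its direction differed between replicates, with AD_3d_3 below CON and the other AD_3d samples above.

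**Figure D2:**
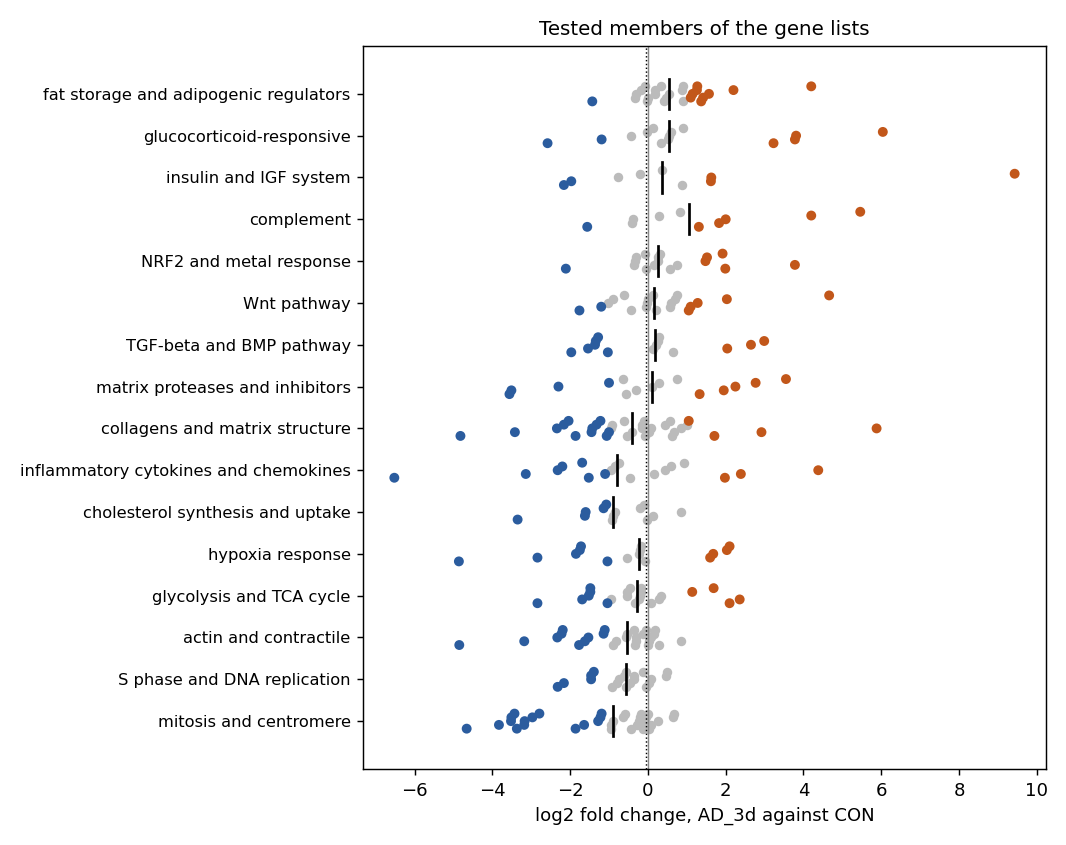
Log2 fold changes, AD_3d against CON, of the tested members of gene lists; each point is a gene, orange (higher) and blue (lower) points passed the threshold and grey points did not, black bars are list medians and the dotted line is the median over all tested genes. In the lists of mitosis and of DNA replication the points that passed with limma on the deposited CPM are all on the lower side.

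Osteoblast genes gave 1 rise and 2 falls among 8 tested members, and no rise without AD_3d_3. Tnfrsf11b, the decoy receptor osteoprotegerin, had 299.5, 325 and 281 CPM in the CON samples and 90.6, 77.5 and 39.6 CPM in the AD_3d samples (log2 fold change -2.19, standard error 0.19, adjusted p = 1.5e-10). Ankh, a pyrophosphate transporter, had 525, 570.4 and 622 CPM in the CON samples and 144, 165 and 163 CPM in the AD_3d samples (log2 fold change -1.85, standard error 0.11, adjusted p = 1.1e-14). Both were lower in all AD_3d samples. Mgp, the matrix Gla protein that inhibits calcification, had 2749.6, 2604 and 2603 CPM in the CON samples and 5698, 4762 and 9420.4 CPM in the AD_3d samples, highest in AD_3d_3, and a log2 fold change of 1.26 with that sample and 0.97 without it. Sp7 and Spp1 were at 0 in all 6 samples. Cartilage genes gave 2 rises and 3 falls among 12, also without AD_3d_3. Sox9, the master regulator of chondrocytes, had 46.6, 46.8 and 50.8 CPM in the CON samples and 15, 15.4 and 19 CPM in the AD_3d samples. Each AD_3d sample was lower (log2 fold change -1.50, standard error 0.14, adjusted p = 7.9e-10). Scx, a tendon and cartilage factor, changed by -1.42. Has2, the hyaluronan synthase, had 18.8, 18.1 and 13 CPM in the CON samples and 236, 195 and 92 CPM in the AD_3d samples. It rose in all AD_3d samples, least in AD_3d_3 (log2 fold change 3.22, standard error 0.27, adjusted p = 3.5e-11). Prg4, the lubricating proteoglycan 4, was at 0 in CON and at 1.42, 1.95 and 5.23 CPM in AD_3d.

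Inflammatory cytokines and their receptors gave 3 rises and 7 falls among 18 tested members, 3 and 6 without AD_3d_3, with a median of -0.80 (-0.24 without AD_3d_3). Besides Il1rl1, Il6, a cytokine of stromal cells, had 43.4, 39.3 and 44.1 CPM in the CON samples and 6.94, 11.5 and 5.54 CPM in the AD_3d samples. The AD_3d values were all lower (log2 fold change -2.32, standard error 0.29, adjusted p = 1.6e-07). Il1a, Il1b and Csf2 had no reads in any AD_3d sample and 1.67 to 9.74 CPM in CON. Their CON means were at least 15.6-fold, 3.65-fold and 7.03-fold above the mean floor of the AD_3d group. Ccl7, a monocyte chemokine, was called only with AD_3d_3, in which it was low, at 1116, 1129.5 and 1145 CPM in CON and 958, 1038 and 146 CPM in AD_3d, with a log2 fold change of -0.18 without it. Ccl2 had the same pattern, with 1428, 1257 and 1429 CPM in CON and 1212, 1530.3 and 233 CPM in AD_3d, and was not called. Cxcl6, a neutrophil chemokine, had 22.2, 13.9 and 15.5 CPM in the CON samples and 275, 326 and 8.08 CPM in the AD_3d samples. AD_3d_3 was below every CON sample while the other AD_3d samples were far above, so the rise of 2.39 (adjusted p = 0.0057) is a mean over replicates that disagree, and 4.07 without AD_3d_3. Il6st, the shared receptor subunit gp130, rose (log2 fold change 1.98, adjusted p = 3.0e-05).

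The complement list had a median of 1.06, with 5 rises and 1 fall among 10 tested members, also without AD_3d_3. Serping1, the C1 inhibitor, had 3899, 3874 and 4044 CPM in the CON samples and 16028, 16800.4 and 10271 CPM in the AD_3d samples. C4b, the fourth component, had 0.286, 0.975 and 1.97 CPM in the CON samples and 117, 153 and 34.7 CPM in the AD_3d samples. C1s and C1r, the proteases of the first component, had 15.8, 24.9 and 19.6 and 382, 349.9 and 324 CPM in CON and 78.3, 74.8 and 93.6 and 1090.4, 952 and 638 CPM in AD_3d, respectively. All AD_3d samples exceeded CON for these genes, and the log2 fold changes of Serping1, C4b and C1r were 1.83, 5.46 and 1.31. The adjusted p of all of them, C1s included, was at most 1.2e-06. Cfd, counted with fat storage above, is the other. The fall was that of Masp1, a protease of the lectin pathway (log2 fold change -1.56, adjusted p = 6.4e-08). Interferon and antigen presentation genes stayed near the background, with 2 rises and 2 falls among 24, 3 and 1 without AD_3d_3, and a median of 0.06 (0.25 without AD_3d_3). Gbp2 and Gbp5, guanylate-binding proteins, were higher by 1.56 and 1.21 on the log2 scale at low levels, Irf5 changed by -1.58, and B2m, with 832, 912 and 810.1 CPM in CON and 963, 731 and 669.6 CPM in AD_3d, was not called.

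In the TGF-beta and BMP pathway 3 of 14 tested members rose and 6 fell, 4 and 5 without AD_3d_3. Among ligands, Tgfb1 had 180.2, 185 and 182 CPM in the CON samples and 68, 70 and 50.1 CPM in the AD_3d samples. It fell in all AD_3d samples (log2 fold change -1.54, standard error 0.14, adjusted p = 2.2e-10). Gdf15, a stress-induced ligand, rose from near the floor to 9.79 to 13.3 CPM (log2 fold change 2.99, adjusted p = 2.9e-09). Mstn, myostatin, was at 2.58 to 3.34 CPM in CON and at 0 in AD_3d, at least 5.71-fold below it. The co-receptor Tgfbr3, betaglycan, had 853, 852 and 885 CPM in the CON samples and 5295, 5633 and 5349 CPM in the AD_3d samples. Its AD_3d replicates, AD_3d_3 included, were nearly equal (log2 fold change 2.65, standard error 0.10, adjusted p = 3.9e-19). Of the target genes, Id3 and Id2, inhibitors of helix-loop-helix factors, changed by -1.36 and -1.34 on the log2 scale, while Klf10, an early TGF-beta response gene, rose (log2 fold change 2.04, adjusted p = 3.0e-06).

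In the Wnt pathway 5 of 20 tested members rose and 2 fell, 4 and 2 without AD_3d_3. The rises were led by secreted antagonists. Frzb had 13.9, 13.9 and 12.9 CPM in the CON samples and 673, 623 and 118 CPM in the AD_3d samples. Every AD_3d sample was above CON, AD_3d_3 least (log2 fold change 4.66, standard error 0.40, adjusted p = 7.4e-11), and the change was 5.48 without it. Sfrp2 had 116, 119.7 and 113 CPM in the CON samples and 1702, 1696 and 36.7 CPM in the AD_3d samples. AD_3d_3 lay below CON, and the log2 fold change was 2.03 (adjusted p = 0.035) with it and 3.86 (adjusted p = 2.1e-10) without it. Wnt4, a ligand, and Fzd4, a receptor, rose by 1.28 and 1.05 on the log2 scale, and Fzd4, at 0.97 without AD_3d_3, was then just under the threshold. The falls were those of Axin2 and Rnf43, feedback targets of beta-catenin, which changed by -1.20 and -1.76 at levels of at most 5.31 CPM. Ctnnb1 and Dkk1 were not analysed here.

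Of 17 tested genes of the NRF2 and metal response 5 rose and 1 fell, in runs with and without AD_3d_3. Besides Mt2A, Nqo1, a quinone reductase, had 341, 346 and 356 CPM in the CON samples and 999, 1044 and 959 CPM in the AD_3d samples. Prdx6, a peroxiredoxin, had 372, 356 and 416 CPM in the CON samples and 899.5, 1033 and 1297 CPM in the AD_3d samples. AD_3d exceeded CON in all samples for both, with log2 fold changes of 1.52 and 1.48 (adjusted p = 3.2e-14 and 1.6e-12). Gclm, a subunit of the enzyme that starts glutathione synthesis, had 188, 201 and 179.8 CPM in the CON samples and 45.8, 45.9 and 38 CPM in the AD_3d samples. It went the other way in all AD_3d samples (log2 fold change -2.11, standard error 0.11, adjusted p = 9.0e-16). Genes of the unfolded protein response gave 1 rise and 2 falls among 23, and no fall without AD_3d_3. The chaperone Hspa5 had 4013, 3896 and 3697 CPM in the CON samples and 4729, 4421 and 2124 CPM in the AD_3d samples, and Pdia4, a disulfide isomerase, had 1287, 1216 and 1219 CPM in the CON samples and 1025, 1008 and 426 CPM in the AD_3d samples. Neither was called, and in both AD_3d_3 was the lowest of the 6 samples. The list's summed level was 13762, 13653 and 7686 CPM in AD_3d and 15302, 14691 and 14730.0 CPM in CON.

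Immediate-early and MAPK feedback genes gave 2 rises and 2 falls among 13 tested members, 3 and 3 without AD_3d_3. Dusp4 and Dusp10, phosphatases of MAP kinases, changed by -2.57 and -2.34 on the log2 scale, and Zfp36, which destabilises cytokine mRNA, had 521, 512 and 589.9 CPM in the CON samples and 1429, 1488 and 1991 CPM in the AD_3d samples (log2 fold change 1.58, standard error 0.17, adjusted p = 9.9e-09). Of 6 clock genes Nr1d1, the repressor REV-ERB-alpha, rose (log2 fold change 1.38, adjusted p = 3.8e-04) and Bhlhe40 fell, with and without AD_3d_3. Of 87 genes named Slc 10 rose and 7 fell, with a median of 0.00, and the counts without AD_3d_3 were equal, with 14 of the 17 genes kept. The rises include the glutamine carrier Slc1a5, with 65.7, 63.1 and 79.5 CPM in CON and 277, 306 and 565 CPM in AD_3d, and the myo-inositol carrier Slc2a13, with 4.01, 3.76 and 4.09 CPM in CON and 51.3, 66.3 and 27.2 CPM in AD_3d. The falls include the sodium-potassium-chloride carrier Slc12a2, with 338, 340.4 and 354 CPM in CON and 116, 117 and 135 CPM in AD_3d, and the mitochondrial aspartate-glutamate carrier Slc25a13, with 20.1, 18.4 and 20.3 CPM in CON and 4.63, 2.66 and 2.85 CPM in AD_3d. Slc9a3r1, a scaffold and not a carrier, is also among the falls. Of 7 Hox genes 0 rose and 2 fell, Hoxd9 and Hoxd13, at -1.27 and -1.06, and Hoxd9 stayed at -1.17 without AD_3d_3, where its adjusted p no longer met the threshold.

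The study's table of transcription factors for 72 h of adipogenesis was chosen on these samples, so its direction is not independent evidence. Of its 33 tested members 13 rose and 13 fell here, 16 and 12 without AD_3d_3 and 20 and 13 after median-ratio scaling. The rises were led by Snai2, Tsc22d3, Ehf (2.71), an ETS factor, Osr1 (2.18), a zinc finger factor of mesenchyme, Klf10 and Epas1. The falls were led by Cenpa, a histone variant of centromeres, Bhlhe40, Pax8 (-1.68) and Irf5. Ehf had 1.86, 0.836 and 1.36 CPM in the CON samples and 13.5, 14.7 and 14.1 CPM in the AD_3d samples. Osr1 had 0, 0.279 and 1.21 CPM in the CON samples and 6.94, 4.79 and 4.75 CPM in the AD_3d samples. Both were above CON in all AD_3d samples, AD_3d_3 included. Members not called, such as Klf3 (0.87), Foxo3 (0.88), Zfp521 (0.90), Klf4 (0.91), RGD1560108 (0.91) and Creb3l1 (0.99), all lay close below the threshold.

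Markers of other cell types were read as lists, and their part in the results was not tested. Of 4 tested mesenchymal stromal markers 0 rose and 2 fell, Thy1 and the integrin Itgb1, and their summed level was 16893, 16086 and 16170.5 CPM in CON and 4779, 4652 and 4113 CPM in AD_3d. Itgb1 was at -1.03, and at -0.94 without AD_3d_3, where it was not called and the hyaluronan receptor Cd44, at -1.08, was. Eng, Vcam1 and Nes, further stromal markers, were under the floor in all 6 samples. Of 6 smooth muscle and pericyte markers 3 fell, Cnn1, Cspg4 (-2.62) and Tagln, with a summed level of 124, 138 and 132 CPM in CON and 14.2, 11.9 and 14.9 CPM in AD_3d. Acta2 and Lmod1 were at 0 throughout. Of 2 osteoblast markers 0 were called, and Sp7, Spp1, Dmp1 and Omd were at 0 in all 6 samples, with a summed level of 3.15, 2.93 and 3.18 CPM in CON and 3.92, 2.31 and 1.27 CPM in AD_3d. Ibsp had the highest CPM of them in CON. Of 2 chondrocyte markers Sox9 fell, and Acan, Col2a1 and Col10a1 were at 0, with a summed level of 46.8, 47.1 and 50.8 CPM in CON and 15.8, 16 and 19.2 CPM in AD_3d.

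The leukocyte list had 1 tested member, Lyz2, a lysozyme, at 0 in CON and 1.42, 1.24 and 2.06 CPM in AD_3d, which rose (log2 fold change 1.35, adjusted p = 4.3e-06). Its summed level was 0, 0.418 and 0 CPM in CON and 3.2, 4.08 and 2.38 CPM in AD_3d, of which Adgre1 had 1.6, 2.84 and 0.317 CPM. Ptprc, Cd68 and Cd74 were not analysed here. Of 2 tested endothelial markers 0 were called, with a summed level of 4.01, 4.88 and 3.49 CPM in CON and 4.1, 3.72 and 3.8 CPM in AD_3d. Tek, a receptor of endothelial cells, had 0.143, 0 and 0.91 CPM in CON and 2.85, 2.31 and 0 CPM in AD_3d, and was called without AD_3d_3 (1.46). The epithelial markers summed to 0.178, 0 and 0 CPM and the Schwann cell markers to 0, 0.709 and 0 CPM in AD_3d, with 0 in CON for both, and the erythroid markers were not analysed here.

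Of the 71 tested genes more than 2 lower in AD_3d_3 on the log2 scale, 41 were called higher and 13 lower than CON when it was left out. With it, 31 and 20 were called. Over all tested genes the shares were 7.01% higher and 8.14% lower without AD_3d_3, and 6.19% and 9.08% with it. The 71 genes were picked for values in AD_3d_1 and AD_3d_2 above those in AD_3d_3. Calls that use the same samples are therefore not independent of that choice. The 10 lowest, as the difference from the mean of AD_3d_1 and AD_3d_2, were Cxcl14 (-5.72), Lum (-5.67), Sfrp2 (-5.49), Igfbp5 (-5.29), Cxcl6 (-5.05), Hpgd (-4.67), Car4 (-4.66), Itgbl1 (-4.19), C5ar2 (-3.95) and Lgr5 (-3.95). Car4, a carbonic anhydrase, had 19.1, 17.7 and 20.3 CPM in the CON samples and 66.1, 70.6 and 1.74 CPM in the AD_3d samples. C5ar2, a complement receptor, had 2.86, 1.81 and 1.06 CPM in the CON samples and 21.2, 17.7 and 0.317 CPM in the AD_3d samples. Both were higher than CON in AD_3d_1 and AD_3d_2 and lower in AD_3d_3. By limma on the deposited CPM neither was called with AD_3d_3, and both were called without it, at 1.79 and 2.85. C5ar2 was also called with all samples after rescaling to the sum of the listed genes (1.69). Lgr5, the R-spondin receptor, had 30.1, 26.6 and 26.2 CPM in the CON samples and 32, 36.2 and 1.27 CPM in the AD_3d samples. It was near the CON level in AD_3d_1 and AD_3d_2 and low in AD_3d_3, and it was not called with or without AD_3d_3.

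The 10 genes highest in AD_3d_3 by the same difference were Mpzl2 (3.05), Maob (2.41), Surf4 (2.22), Snx7 (1.88), Pfkfb3 (1.79), AABR07058884.1 (1.75), Gem (1.72), Scn4b (1.71), Slc35b1 (1.68) and Lipg (1.61). Only 3 genes were more than 2 higher in it, against 71 more than 2 lower, and these counts depend on the pseudocount, with 109 and 296 genes at 0.1, and on the scaling, with 10 and 62 after rescaling to the sum of the listed genes. Mpzl2, an adhesion protein of epithelia, had 0, 0.418 and 0 CPM in the CON samples and 3.92, 3.19 and 36.6 CPM in the AD_3d samples. It was above CON in all AD_3d samples (log2 fold change 3.03, adjusted p = 6.5e-07, and 2.01 without AD_3d_3). Lipg, the endothelial lipase, had 9.74, 9.61 and 8.49 CPM in the CON samples and 0, 0 and 2.06 CPM in the AD_3d samples. It was below CON in all AD_3d samples (log2 fold change -2.82, adjusted p = 3.6e-08), so AD_3d_3 changed its size and not its direction. Large changes such as those of Thy1, Tgfbr3, Lama5, Myh10, Crispld2 and Pik3r1 were of like size in AD_3d_3 and the other replicates.

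**Figure D3:**
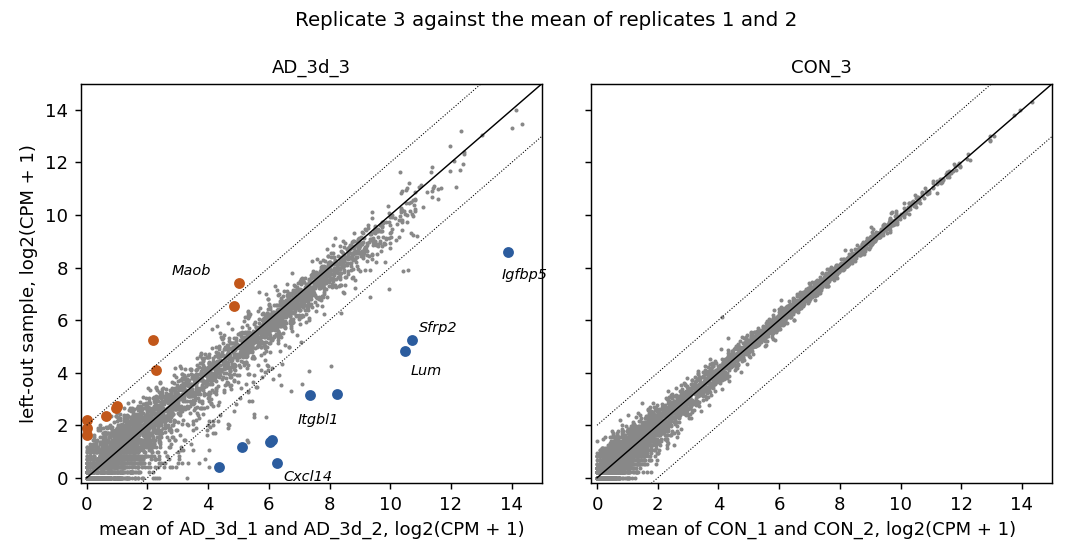
Each tested gene in AD_3d_3 (left) and, for comparison, CON_3 (right) against the mean of replicates 1 and 2 of the same group, both axes in log2(CPM + 1); the solid line marks equality and the dotted lines a difference of 2. Blue and orange points are the 10 lowest and 10 highest genes, and the spread below the line in AD_3d_3 is wider than in CON_3.

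Some calls of named genes rested on single samples other than AD_3d_3. Without AD_3d_1, Axin2 (-0.95), Cxcl6 (1.61), G0s2 (0.97), Hoxd13 (-0.90), Insig1, Pde3b (0.94), Rpl17 (0.90), Sfrp2 (1.11), Sqle (-0.87) and Stc1 (-0.80) were no longer called and Abca1 (1.15), Ccl2 (-1.19), Lgr5 (-1.64) and Surf4 (1.11) were called, with the log2 fold changes in brackets. Without AD_3d_2, Ccnd2 (1.04), Cxcl6 (1.49), Gbp5 (0.67), Sfrp2 (1.11), Sqle (-0.99), Stc1 (-0.92), Tagln (-0.99) and Wisp2 (0.68) were no longer called and Ccl2 (-1.36), Cd44 (-1.02), Lgr5 (-1.72), RGD1560108 (1.14), Slc35b1 (1.24), Surf4 (1.11) and Tns1 (1.04) were called. With AD_3d_3 and only 1 of the other AD_3d samples, Cxcl6 and Sfrp2 failed the test, and Ccl2 and Lgr5 passed it as falls. Leaving out CON_1 ended the calls of Ctgf (-0.96), Gbp5 (1.06), Hoxd9 (-1.18), Itgb1 (-0.99), Itgbl1 (-1.46), Pc (0.92), Pde3b (0.75), Rpl17 (0.98) and Sfrp2 (2.03), leaving out CON_2 those of Fzd4 (0.99), Itgbl1 (-1.41) and Sfrp2 (2.05), and leaving out CON_3 those of Ctgf (-0.85), Gbp5 (1.06), Hoxd9 (-1.18), Itgbl1 (-1.43), Rpl17 (0.99), Sfrp2 (2.01) and Vcl (-0.93). Gained calls were those of Cd44 (-1.01) and Tns1 (1.02) without CON_1, of Cd44 (-1.02) and Creb3l1 without CON_2 and of Tek (1.13) without CON_3. Genes whose log2 fold change stayed at 1 or more in size lost the call by their adjusted p. Sizes also moved without a change of the call. The log2 fold changes without AD_3d_1 and without AD_3d_2 were 8.55 and 8.55 for Igfbp5, 3.43 and 3.41 for Cxcl14, 3.32 and 3.30 for Hpgd, 2.01 and 1.93 for Lum, -2.14 and -2.12 for Itgbl1 and 3.01 and 2.88 for Mmp13.

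Scaling ended further calls near the threshold. After median-ratio scaling the named falls Ccl7 (-0.91), Cox6b1 (-0.97), Ctgf (-0.85), Gadd45b, Insig1 (-0.95), Itgb1 (-0.84), Itgbl1 (-1.25), Ldha (-0.85), Mrpl54 (-0.96), Nid1 (-0.87), Sqle (-0.88), Stc1 (-0.88) and Tagln (-0.96) were no longer called, and the rises Abca1 (1.03), Creb3l1 (1.18), Foxo3 (1.07), Klf3 (1.07), Klf4 (1.10), RGD1560108 (1.10), Tns1 (1.03) and Zfp521 (1.09) were. With edgeR on the recovered reads, Ccl7 (-0.54), Ctgf (-0.85), Insig1 (-0.92), Itgb1 (-0.87), Itgbl1 (-0.48), Ldha (-0.88), Nid1 (-0.87), Sqle (-0.83) and Stc1 (-0.76) were not called and C5ar2 (2.86), Car4 (1.39), Creb3l1 (1.19), Foxo3 (1.06), Klf3 (1.05), Klf4 (1.15), Maob (1.27), RGD1560108 (1.31), Surf4 (6.40), Tek (2.39), Tns1 (1.16) and Zfp521 (1.13) were. The 15 largest rises and the 15 largest falls were not among them. Rescaling to the sum of the listed genes ended the calls lost after median-ratio scaling and also those of Hist1h1e, Loxl3 and Vcl. Quantile normalization ended those of Ccl7, Gadd45b, Id3, Insig1, Itgb1, Itgbl1, Ldha, Loxl3, Mrpl54, Nid1, Pde3b, Rpl17, Sqle and Stc1. Sample weights ended those of Apoe, Ccl7, Ctgf, Fzd4, Itgb1, Itgbl1, Ldha, Lpl, Nid1, Scn4b and Vcl. Thinning to the lowest total ended those of Apoe and Hoxd13, and the pseudocount of 0.1 that of Wisp2. Without the filter on low values, Ctgf, Itgbl1 and Sfrp2 were no longer called. With the samples of the 2 groups only, 23 named calls were lost, the most of any setting, those of Angptl7, Axin2, Ccl7, Ccnd2, Ctgf, Cxcl14, Cxcl6, Gbp5, Grb14, Hpgd, Itgbl1, Lpl, Lum, Mmp13, Mpzl2, Ndrg1, Pfkfb3, Plau, Scn4b, Sfrp2, Stc1, Vcl and Wisp2. Without AD_3d_3 and after median-ratio scaling, the calls lost were those of Ccl7, Cox6b1, Ctgf, Emilin1, Grb14, Itgb1, Ldha, Lpl, Mrpl54, Nid1, Rrm1, Scn4b and Vcl, and without it and with edgeR those of Ccl7, Ctgf, Grb14, Hoxd9, Itgb1, Ldha, Lpl, Mrpl54, Nid1, Scn4b and Vcl.

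Against the adipogenic cells at 12 h, 698 genes (16.0%) differed by the same limma threshold, 226 higher and 472 lower at 72 h, and 669 without AD_3d_3. After median-ratio scaling the split was 429 higher and 253 lower. The largest rises were those of Frzb (6.31), C4b (6.02), Akr1cl (5.77), Sfrp2 (5.42) and Vat1l (4.69), with log2 fold changes in brackets. Frzb had 3.36, 4.05 and 3.52 CPM in AD_12h and 673, 623 and 118 CPM in AD_3d. The largest falls were those of Kif20a (-7.46), Nuf2 (-6.69), LOC102549061 (-6.24), Pclaf (-6.08) and Birc5 (-6.07). Kif20a had 1057, 598 and 587 CPM in AD_12h and 3.74, 4.97 and 1.43 CPM in AD_3d. Kif20a was above the CON level at 12 h and below it at 72 h, with 104, 113 and 90.8 CPM in CON. The groups did not overlap for these genes.

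Against osteogenic medium at 72 h, 599 genes (13.7%) differed, 197 higher and 402 lower in adipogenic medium, and 527 without AD_3d_3. Median-ratio scaling gave 332 and 237. Genes higher in adipogenic medium were led by Igfbp5 (6.44), Sfrp2 (5.48), Vat1l (4.72), Frzb (4.67) and Mmp13 (4.63). Genes lower in adipogenic than in osteogenic medium by the most included Kprp (-5.28), Lama5 (-4.99), Cryab (-4.40) and Cspg4 (-4.18). Igfbp5 had 44.2, 51.8 and 53.2 CPM in OS_3d and 14952, 14956 and 380.5 CPM in AD_3d. Lama5 had 945, 982 and 1008 CPM in OS_3d and 31.5, 28 and 30.3 CPM in AD_3d. Replicates of each group were apart from the other group for both. The Lama5 values in osteogenic medium were all above those in CON, which were 868, 878 and 862 CPM.

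Against chondrogenic medium at 72 h, 1113 genes (25.5%) differed, 393 higher and 720 lower in adipogenic medium, and 1081 without AD_3d_3. Median-ratio scaling gave 570 and 631 and rescaling to the sum of the listed genes 742 and 500, so which direction held more genes depends on the scaling. Genes higher in adipogenic medium were led by Akr1cl (8.12), Aox1 (6.92), Lpl (6.86), Cxcl6 (6.45) and C4b (6.26). Lpl had 13.6, 13.5 and 14.7 CPM in CH_3d and 1160.4, 1387 and 3216 CPM in AD_3d. Genes lower in adipogenic than in chondrogenic medium by the most included Angptl7 (-8.97), Tgfbi (-8.78), Lama1 (-6.88) and Dclk3 (-6.80). Such a difference is not a fall from CON: Angptl7 was higher in AD_3d than in CON, by 3.45 (4.72 without AD_3d_3). Tgfbi, a matrix protein induced by TGF-beta, had 1616, 1559 and 1485 CPM in CH_3d and 3.38, 5.14 and 0.634 CPM in AD_3d. For these genes no adipogenic sample reached the range of the chondrogenic samples.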

How the data were processed

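The 30 samples of the series hold RNA sequencing values of rat bone marrow stromal cells, and 6 of them, AD_3d_1 to AD_3d_3 and CON_1 to CON_3, were compared here. The values are CPM as deposited by the authors under the name FPKM: each was a whole multiple of the smallest value above 0 in its sample (100% of values), from which read counts and sample totals were recovered, and no gene length enters. The labels name Trimmomatic, HISAT2 and StringTie, without versions, and a kit that depletes ribosomal RNA, while the paper describes an mRNA kit. Genome build and annotation are not given in the sources used here. The replicates were pooled from 3 cultures each.

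Each sample had 10803 values, which were summed by gene name to 9999, of which 729 occurred more than once. A gene was tested when 3 or more of the 30 samples had at least 1 CPM. The planned test was limma 3.58.1 in R 4.3.3 on log2(CPM + 1), with a trend and moderated variances, in 1 model of all 10 groups without covariates. The standard errors rest on a variance estimated over all groups, not on the spread of the AD_3d and CON samples alone. A gene was called when its change in either direction was 1 or more on the log2 scale and its Benjamini-Hochberg adjusted p over all tested genes was under 0.05. The same model compared AD_3d with AD_12h, OS_3d and CH_3d. Floors are 3 reads per sample, and a fold against a group at 0 is the mean against the mean floor. Floors cover counting error only, since reads without molecular identifiers are not independent.

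The samples, the gene lists and the test were chosen with earlier results of these data known. Of 33 gene lists and 10 marker lists, 648 members were tested, and 10 names were matched through RefSeq synonyms. The transcription factors are the study's own choice on these samples. No mitochondrially encoded gene was analysed here. The text names the 15 largest rises and falls whose groups did not overlap, members of the lists by size of change, 5 each way for the other comparisons, and the 10 genes highest and lowest in AD_3d_3. Some genes that meet this rule are left out and not reported here. Other names, and the promoters and motifs shown, were chosen after their values were seen.

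The analysis was repeated after median-ratio scaling, rescaling to the sum of the listed genes or quantile normalization, with a pseudocount of 0.1, without the filter, and with the samples of 2 groups only, a replicate block, sample weights, leaving out each replicate, edgeR 4.0.16 on the recovered reads, thinning to the lowest total, and values that share a name tested apart. Python 3.11.15 with pandas 2.3.3, numpy 2.4.6 and matplotlib 3.10.9 made the tables and figures.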

Additional observations from a re-analysis of the deposited data

Results flagged for a closer look

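By a limma test of the difference itself, 698 genes differed between adipogenic medium at 72 h and at 12 h. The same test gave 599 genes between adipogenic and osteogenic medium at 72 h and 1113 between adipogenic and chondrogenic medium at 72 h. Since all of these groups share the undifferentiated controls, each count is also that of genes whose change from the controls differed between the groups. No explanation was weighed.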

How the results depend on the processing

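The counts of genes that differed between AD_3d and CON stayed within 1.5 times under most alternatives, from 563 with the samples of 2 groups only to 874 with a pseudocount of 0.1. The exceptions were the higher genes, 417 after rescaling to the sum of the listed genes and 448 with edgeR, against 270. Against AD_12h, the higher genes were 429 after median-ratio scaling, 393 after rescaling to the sum, 480 with edgeR and 137 with 2 groups only, against 226, and the lower genes 253, 288 and, after quantile normalization, 292, against 472. Against OS_3d, median-ratio scaling, rescaling to the sum and edgeR gave 332, 352 and 407 higher genes against 197, and both scalings gave 237 and 240 lower genes against 402. Against CH_3d, the higher genes were 598 with the pseudocount of 0.1, 742 after rescaling to the sum and 652 with edgeR, against 393. The cause was not tested.

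Settings added after seeing the data left out AD_3d_3 under another choice. Median-ratio scaling without it gave 381 higher and 340 lower genes against CON, 437 and 230 against AD_12h and 317 and 206 against OS_3d. With edgeR without it the counts were 395 and 361, 403 and 299, and 320 and 216. Itgbl1, called lower with all samples, changed sign in both of these settings, to 0.10 and 0.07, without a call.

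Leaving out 1 sample at a time gave 661 to 734 genes against CON (276 to 306 higher, 355 to 457 lower), 642 to 800 against AD_12h, 527 to 703 against OS_3d and 1065 to 1186 against CH_3d. A replicate block gave 666 genes against CON. The deviations of AD_3d and CON samples with the same number from their group means correlated across genes, which are not independent replicates, at 0.016, -0.085 and -0.073, and no sample correlated best with its own number. The test used no pairing.

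With AD_3d_3 more than 2 below the mean of the other AD_3d samples, 71 genes became 296 with the pseudocount of 0.1. More than 2 above, 3 became 109 with that pseudocount, 7 after quantile normalization, 5 after median-ratio scaling and 10 after rescaling to the sum.

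Of the 186 tested genes named in the text and called, 140 were called under every alternative run. This covers each setting but the one that tested values sharing a name apart, which was run for counts only. With 2 groups only, 23 of these calls were lost, the most of any setting, with Cxcl14 and Hpgd of the 15 largest rises and 15 largest falls among them, and Cxcl14 was under the filter after thinning. The rest of the largest changes kept the call. The members of the lists that were called numbered 202, and 174 to 238 under the alternatives. Of the 86 counts per list and direction, 13 moved by more than 1.5 times after median-ratio scaling and 17 with edgeR. Depth limits genes near the floor of 3 reads, for which a change of several-fold may not be detectable.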
